A study of Mus musculus with 6 samples.

Results

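The TNF superfamily genes described here were 10: the ligands *Tnf*, *Tnfsf9*, *Tnfsf10*, *Tnfsf12* and *Tnfsf13b*, the receptors *Tnfrsf1a* and *Tnfrsf1b*, the adaptors *Traf1* and *Traf2*, and the ubiquitin ligase *Birc3*. They were taken by name, as the rows of the deposited gene table with these symbols, and the rule uses no measured value, although the names were picked with earlier results of these data known. All 10 were among the 14097 genes listed, and all 10 were among the 11067 genes with 50 or more normalized counts in 1 or more of the libraries, the filter used throughout. Colonic lamina propria (LP) P3/P4 macrophages (MΦs), gated as CD45+CD11b+CD11cintCD103-CD64+Ly6C-MHCII+ cells, were sorted without any treatment from *Il10rb*-/- mice (KO) and *Il10rb*+/- mice (het) of the 129SvEv strain. Their RNA was sequenced at 1, 3 and 12 weeks of age in 6 libraries, 1 for each genotype at each age. *Il10rb* encodes the β chain of the IL10 receptor, which receptors for related cytokines such as IL22 also use, and it was lacking in every cell of the KO mice rather than in MΦs alone. The controls carried 1 intact allele, and no wild-type mice were among the groups. The 3-week and 12-week libraries held 1 mouse each, whereas the 1-week libraries came from pools of several mice, for whose number the sources differ.

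Ligands of the TNF superfamily bind receptors that have no enzyme activity of their own and that recruit TRAF adaptors and the ubiquitin ligases cIAP1 and cIAP2, the latter encoded by *Birc3*. These complexes switch on NF-κB and MAP kinases, or, when ubiquitination fails, caspase-8 and cell death. In the intestine, TNF made by MΦs acts on epithelial, stromal and immune cells, and antibodies against TNF are used to treat inflammatory bowel disease.

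The 6 libraries held between 6700337 reads on listed genes (het, 3 weeks) and 40754971 (het, 12 weeks). *Il10rb* itself had 1231 reads in het and 8 in KO MΦs at 1 week, then 386 against 28 at 3 weeks and 2341 against 43 at 12 weeks. All 14 macrophage markers examined passed 50 normalized counts in every library, with a summed level of 490900 to 879176 normalized counts. The KO library at 12 weeks stood apart from the others in its markers. Its neutrophil markers summed to 12462 normalized counts against 1450 to 2169 elsewhere, and its dendritic cell markers to 40970, of which *Ccr7* made up 38707, against 1584 to 11473 elsewhere. Of its 14 macrophage markers, 5 were higher and 9 lower than in the het library of that age. Their sum was higher (879176 against 832250 normalized counts), carried by *Cd14* and *H2-Ab1*. *Cd14* had 181665 against 88470, *H2-Ab1* 398482 against 324510 and *Ptprc* 32232 against 21815 normalized counts, whereas *Adgre1* had 3800 against 16537, *C1qa* 7106 against 29971, *Mertk* 532 against 1116 and *Cx3cr1* 906 against 8074. The 1-week libraries differed in other markers: from het to KO, epithelial markers summed to 181 and 1005 normalized counts, monocyte markers to 5056 and 11552, and stromal and endothelial markers to 846 and 1570. Of the 6 monocyte markers, 3 were higher and 3 lower in KO MΦs at 1 week. *Ccr2* carried their sum, with 3960 normalized counts in het and 10700 in KO MΦs. Reads on 4 Y-linked genes numbered 1123 in the 1-week het library and between 5 and 46 in the other libraries. In bulk RNA, fewer cells of a type and less RNA per cell cannot be told apart.

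Normalized counts below are reads divided by a size factor of the library, so that 1 read was worth 0.473 to 2.43 normalized counts depending on the library, and they are not divided by gene length. Ratios are log2 of the KO over the het value, or of the older over the younger library. Because each genotype had 1 library at an age, the ratios at single ages had no replicate check. Their exact Clopper-Pearson 95% intervals cover counting error only and compare libraries, not conditions.

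When levels were divided by exon length, *Tnf* was the most abundant of the 10 genes by its median over the 6 libraries, with 9504 normalized counts per kb (range 6570 to 12651). Among all filtered genes with a known exon length, it ranked between 49th (het, 1 week) and 150th (KO, 12 weeks) per kb. Next came *Tnfsf9* with a median of 3477, *Tnfrsf1b* with 1871, *Tnfrsf1a* with 1718 and *Birc3* with 1428 normalized counts per kb. *Traf1* (180), *Traf2* (113) and *Tnfsf12* (83.0) followed, and *Tnfsf13b* (26.2) and *Tnfsf10* (9.23) had the lowest levels per kb. The ranges over libraries of neighbours in this order overlapped except for *Tnfsf12* (45.8 to 130) and *Tnfsf13b* (15.4 to 36.9). *Traf1* had the widest range, from 38.6 to 1384 normalized counts per kb, a 35.9-fold span, while that of *Traf2* was 1.79-fold.

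**Figure D1:**
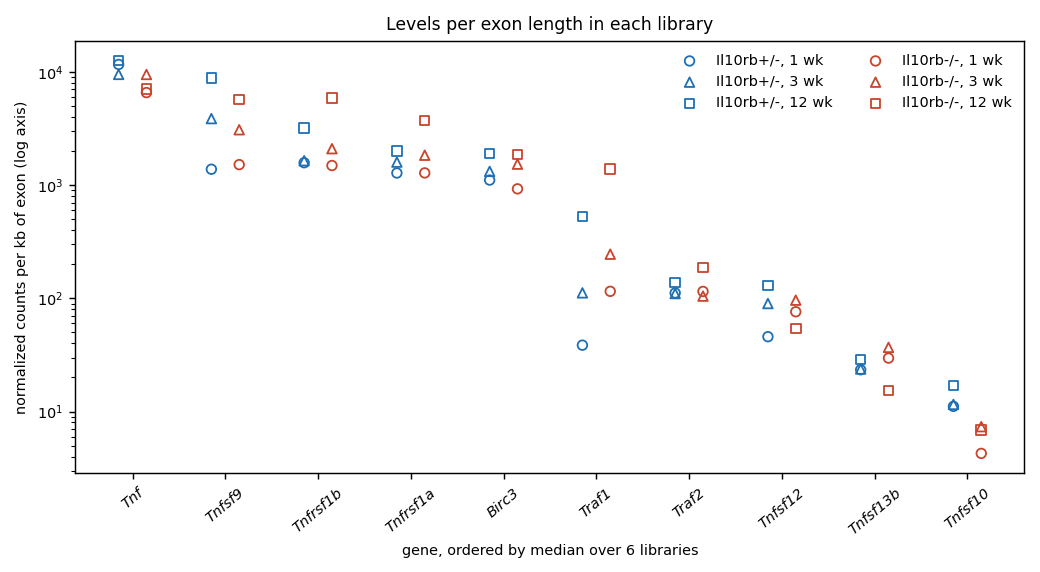
Normalized counts per kb of exon (log axis) of each of the 10 genes in each of the 6 libraries, with blue for *Il10rb*+/- and red for *Il10rb*-/- MΦs and a symbol for each age, ordered by median. *Tnf* stood highest with a median of 9504, and *Traf1* spread furthest, from 38.6 to 1384.

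*Tnf*, the founding ligand of the family and a main inflammatory product of MΦs, lies on chromosome 17 from 35199381 to 35202007 (GRCm38, minus strand). It had 19090 normalized counts in het and 10767 in KO MΦs at 1 week, then 15587 against 15567 at 3 weeks and 20735 against 11552 at 12 weeks. The KO level was thus lower at 1 and 12 weeks, by 1.77-fold and 1.79-fold, and the 3-week libraries differed by less than counting error (log2 ratio -0.00, interval -0.04 to 0.04). The log2 ratio was -0.83 (-0.87 to -0.79) at 1 week and -0.84 (-0.87 to -0.82) at 12 weeks. Macrophage markers moved in both directions at these ages, with 8 of 14 higher and 6 lower in KO MΦs at 1 week and 5 higher and 9 lower at 12 weeks. Their sum was higher in KO MΦs at both ages (528292 against 490900 and 879176 against 832250 normalized counts), but it rests on a few abundant markers. At 12 weeks *H2-Ab1* (398482 against 324510) and *Cd14* (181665 against 88470) carried it, so the sum does not measure macrophage content. The part of cell composition in the *Tnf* difference was not tested. Across the 3 ages, the genotype effect on *Tnf* was -0.56 (SE 0.24) on the log2 scale and did not pass the test (limma, adjusted p = 0.628).

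The sequence just upstream of the *Tnf* start is shown because *Tnf* had the highest level per kb. It spans chr17:35202008-35202257 on the minus strand (RefSeq, GRCm38.p6) and is written 5′ to 3′, with the TATA motif in capitals.
Tnf: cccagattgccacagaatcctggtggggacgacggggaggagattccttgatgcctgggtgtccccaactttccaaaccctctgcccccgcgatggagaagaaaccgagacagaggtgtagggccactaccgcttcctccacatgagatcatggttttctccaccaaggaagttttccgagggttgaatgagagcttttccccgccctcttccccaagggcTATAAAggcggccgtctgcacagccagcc
Windows from 250 bases before to 50 after the start were given by RefSeq for 8 of the 10 genes, with 9 windows in all, and not for *Tnfsf9* and *Tnfsf12*. TATAAA, searched on both strands, was found in 1 of these genes, *Tnf*, at position -29 from the start, and in 13.6% of all 32851 windows. The consensus of NF-κB, searched on both strands as an exact match, was found in 0 of the 8 genes and in 8.46% of all windows, which says only that those letters are not in these windows.

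*Tnfsf9*, which encodes 4-1BB ligand, a co-stimulator of T cells, lies on chromosome 17 from 57105325 to 57107757, and 192 of its exon bases are shared with *Gm11110* on the other strand. Its level was higher at each later age in both genotypes. It had 1783 normalized counts in het and 1958 in KO MΦs at 1 week, then 4991 against 3979 at 3 weeks and 11393 against 7363 at 12 weeks. The genotype ratio moved from slightly higher in KO MΦs at 1 week (log2 0.13, 0.03 to 0.24) to lower at 3 weeks (-0.33, -0.40 to -0.25) and 12 weeks (-0.63, -0.66 to -0.60). *Tnf* exceeded *Tnfsf9* per kb in every library, by 8.43-fold in het MΦs at 1 week and by 1.23-fold in KO MΦs at 12 weeks.

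*Tnfsf10*, which encodes the death ligand TRAIL (chromosome 3, 27317028 to 27342427), was low throughout. It had 58.5 normalized counts in het and 22.5 in KO MΦs at 1 week, then 60.8 against 38.7 at 3 weeks and 89.4 against 36.3 at 12 weeks. Every KO library lay below every het library, and these were the fewest reads of the 10 genes, with 59 against 15 at 1 week, 25 against 44 at 3 weeks and 189 against 57 at 12 weeks. Its log2 ratio was -1.38 (-2.31 to -0.54) at 1 week and -1.30 (-1.75 to -0.87) at 12 weeks, whereas the interval of the 3-week ratio (-0.65, -1.39 to 0.12) included 0. Across the 3 ages the effect was -1.09 (SE 0.40), which did not pass the test (limma, adjusted p = 0.628).

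*Tnfsf12*, which encodes TWEAK (chromosome 11, 69686250 to 69695849), shares 731 exon bases on the same strand with the listed read-through gene *Tnfsfm13*, so its reads are uncertain. It had 69.4 normalized counts in het and 115 in KO MΦs at 1 week, then 136 against 146 at 3 weeks and 197 against 82.1 at 12 weeks. The KO level was higher at 1 week (log2 0.73, 0.25 to 1.22), not separable from het at 3 weeks (0.10, -0.35 to 0.56) and lower at 12 weeks (-1.26, -1.56 to -0.97).

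*Tnfsf13b*, which encodes BAFF, the survival factor of B cells (chromosome 8, 10006467 to 10039072), had 161 normalized counts in het and 204 in KO MΦs at 1 week, then 163 against 253 at 3 weeks and 197 against 106 at 12 weeks. As with *Tnfsf12*, the direction turned with age. KO MΦs were higher at 3 weeks (log2 0.64, 0.25 to 1.04) and lower at 12 weeks (-0.90, -1.17 to -0.64), while the 1-week interval ended just above 0 (0.34, 0.00 to 0.68).

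*Tnfrsf1a*, the widely expressed death domain receptor of TNF (chromosome 6, 125349362 to 125362484), had 3317 normalized counts in het and 3322 in KO MΦs at 1 week, then 4139 against 4762 at 3 weeks and 5201 against 9646 at 12 weeks. The genotypes were level at 1 week (log2 0.00, -0.08 to 0.08) and the KO library was higher at 3 weeks (0.20, 0.12 to 0.28) and at 12 weeks (0.89, 0.86 to 0.93). *Tnfrsf1b*, the second TNF receptor, which lacks a death domain and is found mainly on immune and endothelial cells (chromosome 4, 145213463 to 145246870), had 6024 and 5690 normalized counts at 1 week, then 6274 against 8013 at 3 weeks and 12238 against 22429 at 12 weeks. Its log2 ratio ran from -0.08 (-0.14 to -0.02) at 1 week through 0.35 (0.29 to 0.42) to 0.87 (0.85 to 0.90) at 12 weeks.

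The genotype ratios of the receptors at 12 weeks lay within counting error of each other, 1.85-fold for *Tnfrsf1a* and 1.83-fold for *Tnfrsf1b*. Per kb, *Tnfrsf1b* exceeded *Tnfrsf1a* in every library, by 1.03-fold to 1.23-fold at 1 and 3 weeks and by 1.60-fold in het and 1.58-fold in KO MΦs at 12 weeks. Both are expressed by neutrophils too, and the neutrophil markers were high in the same KO library (7 of the 9 listed markers passed 50 normalized counts there, against 1 or 2 elsewhere). *S100a9* had 2906 normalized counts there and *Csf3r* 6944. The part of such cells in the receptor levels was not tested. Across the 3 ages, neither *Tnfrsf1a* (0.37, SE 0.22) nor *Tnfrsf1b* (0.38, SE 0.23) passed the test of genotype (limma, adjusted p = 0.640 for each).

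*Traf1*, an adaptor that binds TRAF2 and cIAPs at TNF receptors and is itself a target of NF-κB, was the one gene of the 10 that was over 2-fold higher in KO MΦs at all 3 ages. It lies on chromosome 2 from 34941750 to 34961772 (minus strand). It had 340 normalized counts in het and 1017 in KO MΦs at 1 week, then 986 against 2165 at 3 weeks and 4673 against 12208 at 12 weeks. The level was higher at each later age in both genotypes, and the KO level at 1 week (1017) was close to the het level at 3 weeks (986). The KO library exceeded the het library 2.99-fold at 1 week (log2 1.58, 1.39 to 1.77), 2.20-fold at 3 weeks (1.14, 0.98 to 1.29) and 2.61-fold at 12 weeks (1.39, 1.35 to 1.42). Of all genes tested, 0.542% (60 of 11067) were over 2-fold higher in KO MΦs at all 3 ages. Among these 60 were also the receptors *Tnfrsf4* (OX40) and *Tnfrsf8* (CD30), but on few reads: at 1 week *Tnfrsf4* had 0 reads in het and 4 in KO MΦs and *Tnfrsf8* had 7 and 16.

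The genotype effect on *Traf1* across the 3 ages was 1.37 on the log2 scale (SE 0.16), with an unadjusted p of 0.000237, the sixth smallest of 11067, and it did not pass after adjustment (limma, adjusted p = 0.388). In that test 0 genes (0%) passed an adjusted p of 0.05 in limma, and the smallest adjusted p was 0.0649. Even *Il10rb*, 38.2-fold to 102-fold lower in KO MΦs by age, did not pass, so not passing does not show that genotypes were alike. Of all genes, 845 had an unadjusted p under 0.05, and no other tool was run. Leaving out the libraries of 1 age moved the adjusted p of *Traf1* to 0.238 without 1 week, 0.414 without 3 weeks and 0.00524 without 12 weeks, where the effect was 1.36. This test measures its error from how much the KO-to-het difference varied over the ages, and it cannot speak for a single age. The summed level of the 7 dendritic cell markers, carried by *Ccr7*, was also highest at 12 weeks and higher in KO than in het MΦs at 3 and 12 weeks. Of the 7, 4 were higher and 3 (*Itgae*, *Flt3* and *Zbtb46*) lower in KO MΦs at 3 weeks, and all 7 were higher at 12 weeks. *Ccr7* had 1029 normalized counts in het and 3159 in KO MΦs at 3 weeks, and 10331 and 38707 at 12 weeks. At 1 week *Ccr7* had 2003 and 1976 normalized counts, and *Ccr2*, a monocyte marker, 3960 and 10700, with epithelial markers also higher in KO MΦs at that age. The part of these cells in the *Traf1* ratios was not tested at any age.

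The sequence upstream of the *Traf1* start is given because *Traf1* had the highest genotype ratio of the 10 genes at every age. It spans chr2:34961773-34962022 on the minus strand (RefSeq, GRCm38.p6), written 5′ to 3′, with no match to either motif.
Traf1: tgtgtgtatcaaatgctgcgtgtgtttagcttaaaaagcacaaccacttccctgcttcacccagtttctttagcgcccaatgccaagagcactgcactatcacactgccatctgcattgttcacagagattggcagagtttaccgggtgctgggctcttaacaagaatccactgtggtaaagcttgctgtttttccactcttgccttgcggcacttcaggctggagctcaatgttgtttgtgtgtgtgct

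*Traf2*, the adaptor that brings cIAPs to TNF receptors (chromosome 2, 25517982 to 25546940), was nearly flat beside *Traf1*. It had 569 normalized counts in het and 587 in KO MΦs at 1 week, then 562 against 534 at 3 weeks and 704 against 955 at 12 weeks. Its log2 ratio was 0.04 (-0.14 to 0.23) at 1 week, -0.07 (-0.30 to 0.15) at 3 weeks and 0.44 (0.34 to 0.55) at 12 weeks, so that only the 12-week interval excluded 0. The ratio of *Traf1* to *Traf2* per kb therefore differed by both age and genotype, from 0.346 in het and 1.00 in KO MΦs at 1 week, through 1.01 and 2.35 at 3 weeks, to 3.84 and 7.39 at 12 weeks.

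*Birc3*, which encodes cIAP2 (chromosome 9, 7848699 to 7873186), had 5552 normalized counts in het and 4645 in KO MΦs at 1 week, then 6626 against 7678 at 3 weeks and 9552 against 9320 at 12 weeks. Its genotype ratios were small at every age and not of 1 direction: log2 -0.26 (-0.32 to -0.19), 0.21 (0.15 to 0.28) and -0.04 (-0.07 to -0.01). Its neighbouring paralog *Birc2*, which encodes cIAP1, was lower per kb in every library, by 4.95-fold (KO, 12 weeks) to 9.25-fold (het, 12 weeks).

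**Figure D2:**
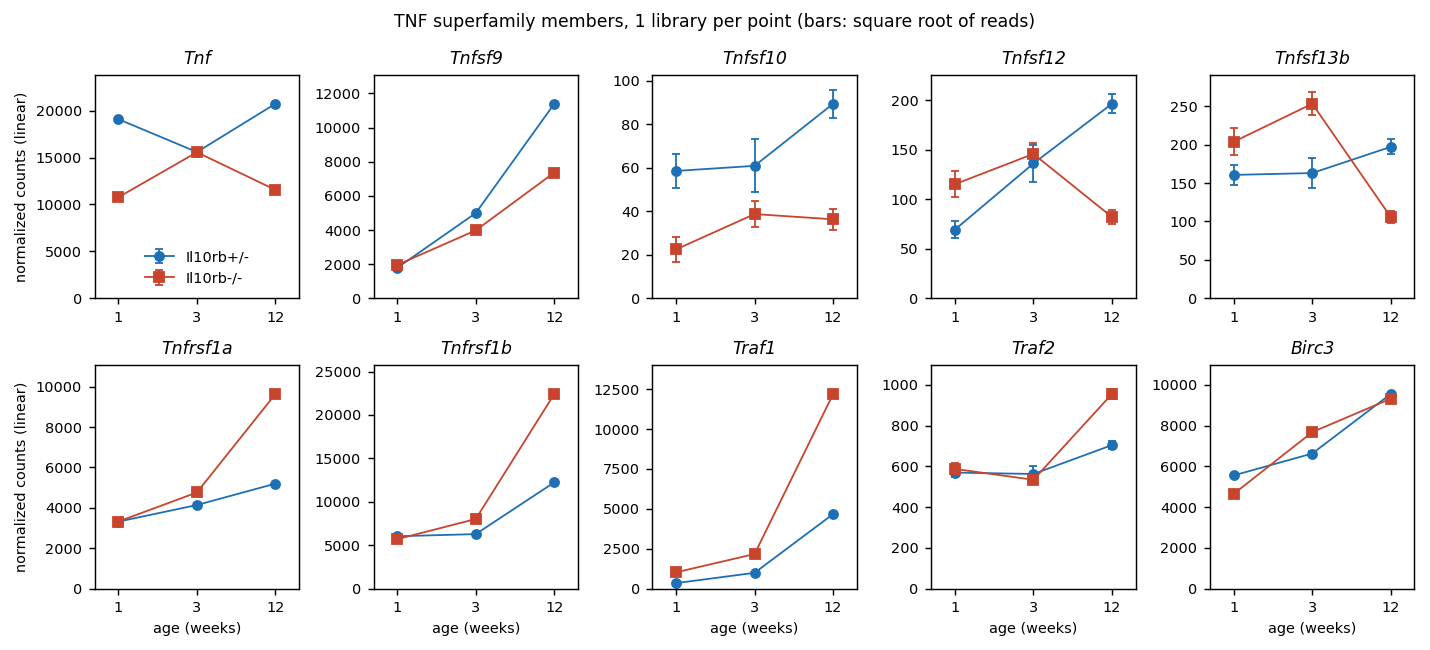
Normalized counts (linear axis from 0) of each gene against age in weeks, the ages evenly spaced, with 1 library per point, blue circles for *Il10rb*+/- and red squares for *Il10rb*-/- MΦs, and bars of the square root of the reads on the same scale. *Traf1* was higher in the KO library at each age (1017 against 340, 2165 against 986 and 12208 against 4673), while *Tnfsf12* and *Tnfsf13b* were higher in it at 1 week and lower at 12 weeks.

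Set side by side, the 10 genes showed no common genotype direction at 1 and 3 weeks. At each of these ages 6 were higher and 4 lower in KO MΦs, with a median log2 ratio of 0.02 at 1 week and 0.15 at 3 weeks, against -0.04 and 0.02 over all genes tested. At 12 weeks all 5 ligands were lower in KO MΦs (-0.63 to -1.30) and both receptors and both TRAFs were higher (0.44 to 1.39), with *Birc3* near 0, and these signs held when libraries were scaled by total reads or by TMM. Of the other genes of the family past the filter, 7 of 10 ligands and 10 of 18 receptors were higher in KO MΦs, beside 5759 of all 11067 genes. The median over the 10 genes was -0.33 at 12 weeks, against 0.04 over all genes. At this age neutrophil markers summed to 1858 normalized counts in het and 12462 in KO MΦs and dendritic cell markers to 11473 and 40970. Monocyte markers summed to 22761 and 32668, with 5 of the 6 higher in KO MΦs and 1 lower. *Plac8* carried that sum (1515 in het and 14515 in KO MΦs), whereas *F13a1* was lower (9349 and 1039). The part of all these cells in the ratios was not tested.

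Of the 10 genes, 0 were over 3-fold different between genotypes at any age, beside 3.5% of all genes at 1 week, 1.98% at 3 weeks and 14% at 12 weeks. At 2-fold, *Traf1* was the gene over the threshold upward at each age, beside 4.73% of all genes at 1 week, 2.93% at 3 weeks and 8.66% at 12 weeks. Downward, *Tnfsf10* passed 2-fold at 1 week (all genes 2.22%), none of the 10 did at 3 weeks (2.02%), and *Tnfsf10* and *Tnfsf12* did at 12 weeks (15.9%). *Tnfsf10* met the filter only through its het values. With 10 genes, 1 or 2 genes over a threshold at 12 weeks is near these background shares. No ratio of the 10 genes at a single age carries a test, and across ages none passed (limma, adjusted p from 0.388 to 0.986). *Il10rb* itself did not pass in that fit, so not passing does not show that a gene was alike between genotypes.

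**Figure D3:**
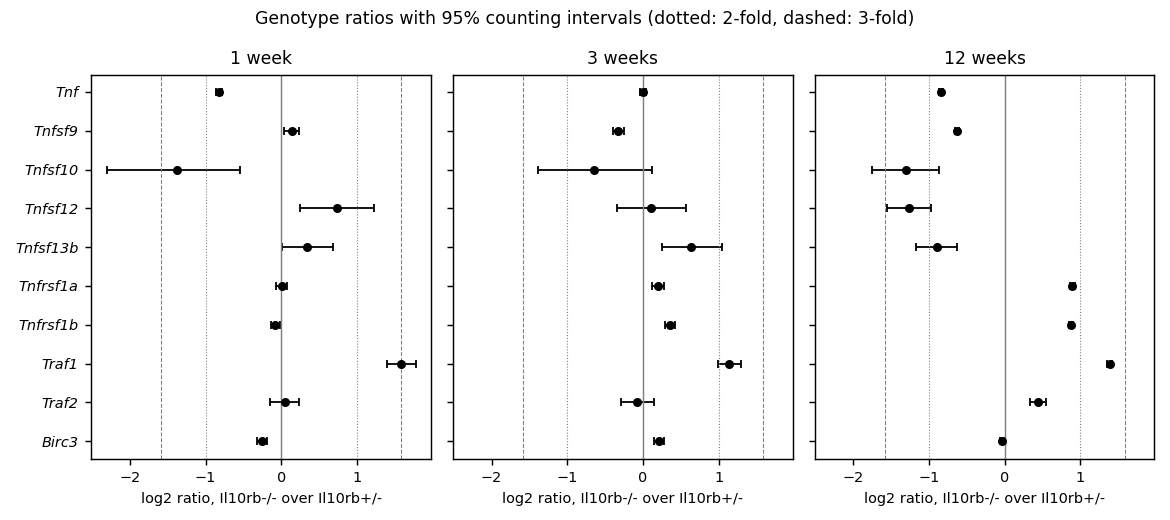
Log2 ratio of *Il10rb*-/- over *Il10rb*+/- normalized counts for each gene at 1, 3 and 12 weeks, with exact 95% counting intervals from 1 library per genotype (dotted lines 2-fold, dashed lines 3-fold). At 12 weeks the ligands lay between -0.63 and -1.30 and the receptors and TRAFs between 0.44 and 1.39.

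Steps in age were taken within each genotype. The same libraries enter the genotype ratios above, so the 2 sets of values are not independent. In het MΦs, *Tnfsf9* (2.80-fold) and *Traf1* (2.90-fold) were over 2-fold higher at 3 than at 1 week, beside 8.66% of all genes, and 0 of the 10 were over 3-fold, beside 6.56%. Between 3 and 12 weeks in het MΦs all 10 genes were higher, under each scaling tried, beside 5616 of all 11067 genes. Their median log2 ratio was 0.53, against 0.01 over all genes. The intervals of *Tnfsf13b* (0.27, -0.10 to 0.67) and *Tnfsf10* (0.56, -0.05 to 1.22) included 0. In the same step the summed markers of B and plasma cells went from 1205 to 18304 normalized counts, those of dendritic cells from 1584 to 11473 and those of T cells from 311 to 1082, and their part was not tested. *Traf1* (4.74-fold) and *Tnfsf9* (2.28-fold) were over 2-fold, beside 9.35% of all genes, and *Traf1* was over 3-fold, beside 6.36%. Of the genes over 3-fold in that step 85.1% were higher at 12 weeks, and 75.0% when libraries were scaled by total reads.

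In KO MΦs between 1 and 3 weeks, 9 of the 10 genes were higher, beside 5633 of all 11067, with *Traf2* the exception (-0.14, -0.32 to 0.05). *Traf1* (2.13-fold) and *Tnfsf9* (2.03-fold) were over 2-fold, beside 7.64% of all genes, and 0 were over 3-fold, beside 5.02%. *Tnf* was higher at 3 than at 1 week in KO MΦs (log2 0.53, 0.49 to 0.57) and lower in het MΦs (-0.29, -0.33 to -0.25). Between 3 and 12 weeks in KO MΦs the genes parted. *Traf1* was 5.64-fold, *Tnfrsf1b* 2.80-fold and *Tnfrsf1a* 2.03-fold higher at 12 weeks, beside 11.7% of all genes over 2-fold higher, and *Traf1* was also over 3-fold, beside 14.2%. *Tnfsf13b* was 2.40-fold lower, beside 14.6% of all genes over 2-fold lower, and *Tnfsf12* (-0.83, -1.17 to -0.49) and *Tnf* (-0.43, -0.46 to -0.40) were lower by less. These were the KO libraries between which the cell type markers also moved, and of the genes over 3-fold in that step 40.5% were higher at 12 weeks, or 24.0% when scaled by total reads.

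Across both genotypes, limma passed 0.0181% of all genes (2 of 11067) for 3 against 1 week and 0.0271% (3 of 11067) for 12 against 3 weeks, with 958 and 2249 genes at an unadjusted p under 0.05. None of the 10 genes passed either contrast after adjustment, although some, such as *Traf1* and *Tnfsf9*, were among those with an unadjusted p under 0.05. *Traf1* was nearest, with a difference of 2.37 (SE 0.20) on the log2 scale between 3 and 12 weeks, higher at 12 weeks in both genotypes (limma, adjusted p = 0.0642). With a pseudocount of 10 in place of 1 its adjusted p was 0.0476, and over all settings tried it lay between 0.0476 and 0.119. From 3 to 12 weeks *Tnfrsf1b* differed by 1.22 (SE 0.28) and *Tnfsf9* by 1.04 (SE 0.24), each higher in both genotypes (limma, adjusted p = 0.160 for each). *Tnfsf9* differed by 1.25 (SE 0.24) from 1 to 3 weeks (limma, adjusted p = 0.222).

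The rest of the TNF pathway was followed with 8 further gene lists, whose genes are described by counts and medians at 12 weeks beside all genes (median 0.04) and with no test. Of all 11067 genes past the filter, 5088 were higher in KO MΦs at 1 week, 5764 at 3 weeks and 5759 at 12 weeks. Among 10 other ligands past the filter, 7 were higher and 3 lower in KO MΦs, with a median log2 ratio of 0.69. *Fasl*, the Fas ligand of cytotoxic cells, went from 3.31 to 141 normalized counts (log2 5.42, 4.35 to 6.75, from 7 reads in het MΦs) and *Cd40lg*, the CD40 ligand of helper T cells, from 10.9 to 178 (4.03, 3.42 to 4.71). At the other end were *Tnfsf18*, which encodes GITR ligand (-3.48, -5.40 to -2.05, on 60 and 4 reads), and *Tnfsf15*, which encodes TL1A (-1.09, -1.50 to -0.70). At this age *Fasl* and *Cd40lg* reached 50 normalized counts only in the KO library, so the filter itself favours a higher ratio for them. Both are among the 7 higher ligands, and both are chiefly genes of lymphocytes. The 9 T cell markers summed to 1082 normalized counts in het and 1180 in KO MΦs, with 3 and 6 of them past 50 and 8 of the 9 higher in KO MΦs, and *Cd3e* had 39.7 and 93.0 while *Cd2* had 748 and 175. The part of T cells was not tested.

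Among 18 other receptors past the filter, 10 were higher and 8 lower, with a median of 0.17. The highest were *Tnfrsf4* (2.66, 2.28 to 3.06) and *Tnfrsf14*, which encodes the LIGHT receptor HVEM (1.37, 1.22 to 1.52). The lowest were *Tnfrsf13c*, which encodes the BAFF receptor of B cells (-2.61, -2.99 to -2.24), and *Tnfrsf11a*, which encodes RANK (-1.76, -1.85 to -1.67). Of the 8 B and plasma cell markers, 7 were lower in KO MΦs, such as *Cd79a* with 1483 and 208 normalized counts, while *Sdc1* was higher, with 634 and 5560. Their sum was 18304 normalized counts in het and 7471 in KO MΦs, and their part was not tested.

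Of the 7 other TRAF and IAP genes, 6 were higher at 12 weeks (median 0.54), led by *Traf6*, the adaptor of Toll-like and IL1 receptors (1.45, 1.38 to 1.53), and *Traf3*, a restraint on the non-canonical NF-κB pathway (1.10, 1.02 to 1.17). The lowest were *Traf5* (-0.65, -0.78 to -0.52) and *Traf7* (0.15, 0.05 to 0.25). At 1 week all 7 had been lower in KO MΦs, with ratios of -0.33 to -0.03, beside 5946 of all 11067 genes lower. In the receptor complex and linear ubiquitin list, 3 of 16 genes were higher at 1 week (median -0.19), 13 of 16 at 3 weeks (0.18) and 13 of 16 at 12 weeks (0.60). *Ikbkb*, the kinase that releases NF-κB (1.30, 1.25 to 1.36), and *Sharpin*, a subunit of the linear ubiquitin ligase (1.03, 0.91 to 1.14), were highest, and *Tab2* (-0.40, -0.52 to -0.29) and *Tab1* (-0.31, -0.52 to -0.11), partners of the kinase TAK1, were lowest.

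In the death signalling list, 6 of 9 genes were higher at 12 weeks (median 0.26). *Mlkl*, the pore protein of necroptosis, was among the higher genes (0.93, 0.69 to 1.16), and *Bid*, which links death receptors to mitochondria, among the lower (-0.47, -0.62 to -0.32). The list labelled non-canonical NF-κB had 6 of 6 genes higher at 3 weeks (median 0.34) and 4 of 6 at 12 weeks (0.41), beside 5764 and 5759 of all 11067 genes. Not all of its genes are particular to that pathway. This list shares *Tnfaip3* with the receptor complex list, and it does not measure the activity of the pathway it is named for. Its highest at 12 weeks were *Nfkbie*, an inhibitor of NF-κB (1.01, 0.99 to 1.04), and *Nfkb2*, the precursor of p52 (0.79, 0.75 to 0.83), and its lowest *Traf3ip2* (-0.53, -0.85 to -0.21) and *Map3k14*, which encodes the kinase NIK (-0.21, -0.31 to -0.12).

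The genes that control TNF shedding and its mRNA had a median near 0 (0.06, with 8 of 12 higher). *Adam17*, the protease that releases TNF from the membrane, was higher in KO MΦs (0.77, 0.73 to 0.81), as was *Mapkapk2*, a kinase that stabilizes *Tnf* mRNA (0.95, 0.92 to 0.97). *Timp3*, an inhibitor of ADAM17 (-3.28, -3.58 to -2.99), and *Rhbdf1*, which encodes the ADAM17 partner iRhom1 (-3.62, -4.01 to -3.26), were lower. Stromal and endothelial markers, which summed to 4776 normalized counts in het and 1222 in KO MΦs, moved with these genes, and their part was not tested. In the list of TNF-induced feedback and target genes, 7 of 13 were higher (median 0.01), with *Sod2*, the mitochondrial superoxide dismutase (2.31, 2.27 to 2.34), and *Tnfaip6* (1.83, 1.59 to 2.08) at the top. The chemokine genes *Cxcl1* (-1.18, -1.19 to -1.16) and *Ccl2*, which attracts monocytes (-4.22, -4.27 to -4.16), were at the bottom.

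**Figure D4:**
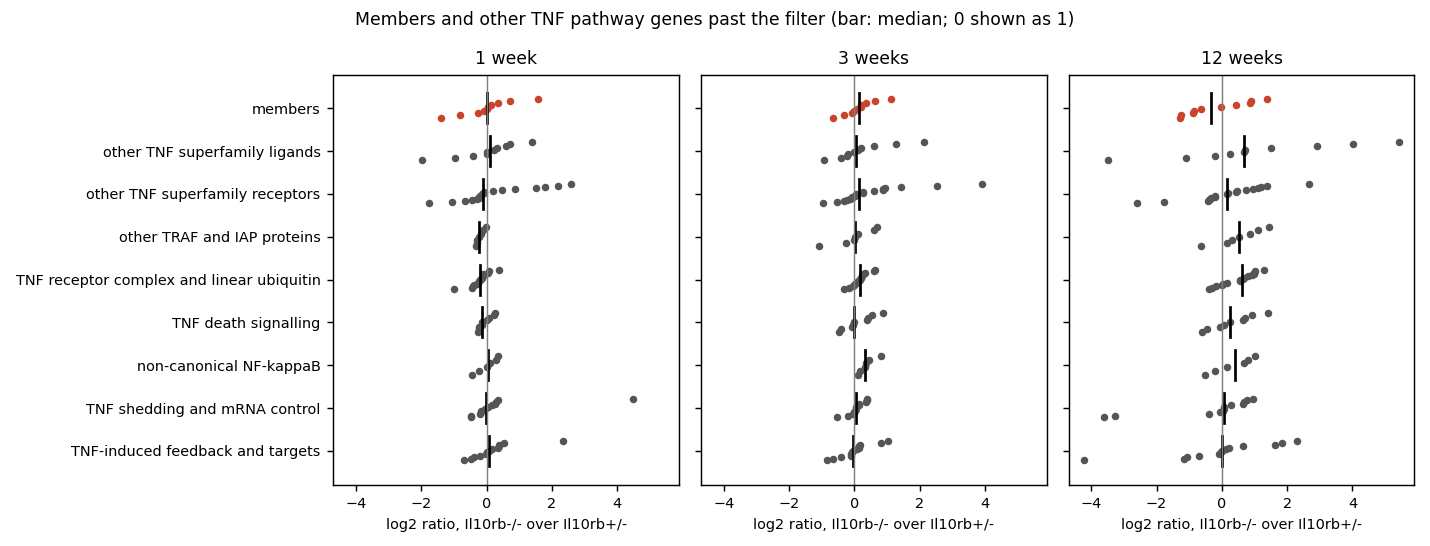
Log2 ratio of *Il10rb*-/- over *Il10rb*+/- normalized counts at 1, 3 and 12 weeks for the 10 genes (red) and for the genes of 8 other TNF pathway lists past the filter (grey), 1 point per gene, with the median as a bar and 0 reads shown as 1. The receptor complex list moved from a median of -0.19 at 1 week to 0.60 at 12 weeks, and the other ligands spread furthest at 12 weeks, from -3.48 to 5.42.

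Likeness of pattern was measured by Pearson's r of log2 values over the 6 libraries, against 11066 genes, as a description. For *Tnf* the nearest genes were *Kdsr* (r = 0.986), *Rbm48* (0.985) and *Mpeg1* (0.977), the last of which encodes perforin-2, a MΦ protein, with 17097 normalized counts in het and 10652 in KO MΦs at 1 week and 18293 and 9772 at 12 weeks. *Traf1* was most like *Adora2b*, which encodes an adenosine receptor (r = 1.00), *Mthfd2* and *Cish* (0.997 each). *Adora2b* had 48.6 normalized counts at 1 week and 1179 at 12 weeks in het MΦs, and 205 and 3739 in KO MΦs. *Tnfrsf1b* was most like *Zswim4* and *Jak2* (0.999 each) and *Lppr3* (0.998). Of the 11066 genes, 26 had r over 0.99 with *Tnfrsf1b* and 18 with *Traf1*, against 0 with *Tnf*, and all genes share the same 6 libraries and their depths.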

How the data were processed

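RNA of sorted colonic MΦs was sequenced in 6 libraries, whose labels give the genotype and age. Per the methods, the authors used TopHat (mm10, single-end reads) for alignment and DESeq for normalization, and the submitters' processing notes also name Trim Galore and HTSeq. Tool versions, annotation and strand setting were not given in the sources used here, so overlapping genes are uncertain. The labels name a SMART-Seq kit and the methods oligo dT beads. The deposited values are a normalized signal (counts over size factor) with 0 shown as 1, and this scaling sets all ratios. Leaving out the 1s, 100% of the values of a library were multiples of a single step (tolerance 0.02), so reads were read back for the counting intervals, and the filter of 50 corresponded to 20.5 to 106 reads.

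Ratios at 1 age were given with exact 95% intervals and no test. Genotype and age effects over all 6 libraries were fitted with limma 3.58.1 (R 4.3.3) on log2(value + 1) with age as a factor, an empirical Bayes trend and Benjamini-Hochberg adjustment over 11067 genes. With 1 library per genotype and age, and samples not said to be replicated, p-values measure only the spread of effects between these libraries. The intervals and the fit were tested on simulated data. Alternatives were scaling by total reads or by TMM factors of the reads read back, a pseudocount of 10, other filters, a 2-fold threshold, no age term and leaving out each age. The 10 genes and all lists were chosen with earlier results of these data known. Outside the 10 genes, the text names the 2 highest and 2 lowest genes of each list at 12 weeks (some items are not reported here) and the 3 genes most alike to *Tnf*, *Tnfrsf1b* and *Traf1*. *Tnfrsf8*, *Birc2* and *Ccr7*, as well as the other single markers named from the cell type lists, were singled out after their values were seen. Coordinates are from GENCODE vM21 (GRCm38), in which 14085 of 14097 genes were found by gene identifier.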

Additional observations from a re-analysis of the deposited data

Results flagged for a closer look

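For 5 of the 10 genes the genotype ratio had opposite signs at different ages, each beyond its counting interval. The share of all genes with such a change of sign was not counted, so the 5 are not shown to be a trait of the family. The intervals leave out errors of scaling, and the smallest of these ratios are close to 0. With 1 library per genotype and age, the difference between ages was not tested. *Tnfsf9*, the 4-1BB ligand, had a log2 ratio of 0.13 at 1 week, -0.33 at 3 weeks and -0.63 at 12 weeks. *Tnfsf12* (TWEAK) had 0.73 at 1 week and -1.26 at 12 weeks, and *Tnfsf13b* (BAFF) had 0.34 at 1 week, 0.64 at 3 weeks and -0.90 at 12 weeks. In the other direction, *Tnfrsf1b* had -0.082 at 1 week, 0.35 at 3 weeks and 0.87 at 12 weeks. *Birc3* had -0.26 at 1 week, 0.21 at 3 weeks and -0.036 at 12 weeks.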

How the results depend on the processing

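Depth limits *Tnfsf10*, *Tnfsf12* and *Tnfsf13b*, which had 15 to 417 reads per library, and 1 library per genotype and age leaves every single-age ratio without a test. Of the 70 ratios of the 10 genes, all 70 stayed within their counting intervals with a pseudocount of 10 and 68 with TMM scaling, which changed 1 sign, while scaling by total reads moved 35 beyond them and changed 4 signs. Total-read scaling shifted the median of all genes from 0.04 to -0.19 for the genotype at 12 weeks and from 0.05 to -0.36 for KO MΦs from 3 to 12 weeks. The median of the 10 genes became -0.55 for the genotype at 12 weeks, 0.020 and 0.29 for the het steps to 3 and 12 weeks, and 0.34 and 0.14 for the KO steps. With the filter on the compared libraries the last was 0.84.

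Genes over the 3-fold threshold depended on the filter and pseudocount. At 1 week 387 passed, against 127 with a pseudocount of 10, 1124 with no filter, 133 with the filter on the compared libraries and 770 at 2-fold. At 3 weeks 219 became 85, 895, 105 and 548 in the same order. At 12 weeks 1552 became 2947 with no filter and 2718 at 2-fold. The het step to 3 weeks gave 726, then 444, 1657, 475 and 1389. The het step to 12 weeks gave 704, then 1964 with no filter and 1415 at 2-fold. The KO step to 3 weeks gave 556, then 316 with a pseudocount of 10, 1413 with no filter and 1217 at 2-fold, and that to 12 weeks 1571, then 2753 with no filter and 2906 at 2-fold. Of the 10 genes, 1 (*Traf1*) was over 3-fold at 1 week with TMM scaling and 2 in the KO step to 12 weeks by total reads. At 2-fold the numbers were 2, 1 and 3 for the genotype at 1, 3 and 12 weeks, 2 and 2 for the het steps and 2 and 4 for the KO steps.

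The age term pairs the libraries of an age, as a replicate block would. Without it (no replicate block) 1 gene passed for genotype. A pseudocount of 10 also gave 1, and leaving out 1 age at a time gave 1 to 46 (20 without 1 week, 1 without 3 weeks and 46 without 12 weeks), against 0 in the full fit. For 3 against 1 week 2 genes passed, 8 with a pseudocount of 10 and 7 with no filter. For 12 against 3 weeks 3 passed, 8 with a pseudocount of 10 and 0 by total reads. Effects near 0 changed sign: *Tnfsf13b* genotype (0.03) to -0.060 by total reads and from -0.28 to 0.49 when 1 age was left out, *Birc3* (-0.03) to between -0.15 (without 3 weeks) and 0.088 (without 1 week), *Tnfsf12* (-0.14) to between -0.58 (without 1 week) and 0.41 (without 12 weeks), *Traf2* (0.14) to between -0.015 (without 12 weeks) and 0.24 (without 3 weeks), *Tnf* 3 against 1 week (0.12) to -0.040 and *Tnfsf10* 12 against 3 weeks (0.23) to -0.092 by total reads. The cause was not tested. For the single-age ratios, no paired analysis was possible because each genotype has 1 library at an age. The planned edgeR and DESeq2 fits were not run. The table holds scaled values, and although reads were read back from them, these fits were not made on those reads.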
